A study of Mus musculus with 6 samples.

Results

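Myc and 34 genes that act in ribosome biogenesis or are well-known Myc targets were followed in RNA-seq counts of mouse bone marrow LSK cells. LSK cells lack lineage markers and are positive for the surface proteins Kit and Sca1, and they include the haematopoietic stem cells and early multipotent progenitors. The 35 genes came from a list of symbols fixed by name and chosen with earlier results of these data known. All 35 were found among the 24063 symbols of the count table. The series compared LSK cells of mice with floxed Arid2 alleles and the MxCre transgene (Arid2fl/fl:MxCre+, labelled knockout, 3 libraries) with those of mice carrying MxCre alone (MxCre+, labelled control, 3 libraries), all on the strain background given as C57/BL6. Arid2 encodes a subunit of PBAF, a chromatin remodelling complex of the SWI/SNF family. Mice of both genotypes were 6 to 8 weeks old when they received pIpC, a synthetic double-stranded RNA that triggers an interferon response, and cells were sorted 6 weeks later. Because the Mx1 promoter responds to interferon in many cell types, deletion is not restricted to LSK cells, and both genotypes shared the transgene and the injection. Nothing in the labels ties a library to an animal or litter, so the spread behind each p-value is that among these libraries. How much of it is technical cannot be told, though the control libraries were of both sexes (below).

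Myc is a transcription factor that pairs with Max and binds the E-box CACGTG. It acts on genes of cell growth, among them those for RNA polymerase I, for the small nucleolar ribonucleoproteins (snoRNPs) that guide rRNA modification, and for the factors that assemble the small and large ribosomal subunits in the nucleolus. In blood stem and progenitor cells, the balance between self-renewal and differentiation is known to depend on Myc and on a tightly set rate of protein synthesis.

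Libraries held 12408966 to 28185678 counted reads. Arid2 itself had 162.5, 150.2 and 155.4 CPM (the count scaled by library size) in knockout replicates 1 to 3 and 165, 154 and 148.4 CPM in the controls, with a log2 fold change of 0.0018 (95% interval −0.15 to 0.15, edgeR adjusted p = 0.991). Loss of a single exon cannot be read from a whole-gene count, so knockout and control here mean the libraries with those labels. Xist and Y-linked counts marked all 3 knockout libraries and control replicate 2 as female and control replicates 1 and 3 as male, so a fit with a sex term compares the knockout libraries with control replicate 2 alone. Of 11 LSK marker genes, all were detected, 5 (among them Ly6a, the gene of Sca1) were lower in the knockout libraries and 10 had a negative log2 fold change, with summed levels of 1477 to 1632 CPM against 1861 to 2291 CPM in controls. Markers of mature neutrophils summed to 7267 to 9323 against 3020 to 5833 CPM (5 of 13 higher), those of monocytes and macrophages to 2210 to 3110 against 1381 to 1640 CPM (7 of 15 higher), and those of erythroblasts to 493.6 to 1226 against 385 to 957.8 CPM (6 of 12 higher). None of the B cell genes and none of the T and NK cell genes was called higher, and 1 of 11 and 1 of 12 tested were lower. Their log2 fold changes were nevertheless positive for 10 of the 11 and 8 of the 12. Summed levels were 640.6 to 851.5 against 471 to 724.2 CPM for B cells and 285.8 to 350.8 against 246.7 to 328.4 CPM for T and NK cells. Among mast cell and basophil genes, 3 of 7 were lower. Over all genes tested 3.85% were called higher and 4.58% lower by edgeR. By group alone, median log2 fold changes were −0.43 (LSK), 0.67 (neutrophil), 0.91 (monocyte and macrophage), 1.70 (erythroblast) and −0.71 (mast cell and basophil). With the sex term, which rests on control replicate 2 alone, they were −0.22, 0.78, 0.82, 2.245 and −0.90. The B cell and the T and NK cell medians were 0.545 and 0.30 by group alone, and 0.19 and 0.18 with the sex term. No listed marker that the table holds was at 0 in every library. The part of this shift in cell type markers in the results below was not tested, and in bulk samples fewer cells of a type and less RNA per cell cannot be told apart.

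None of the 35 genes differed between the groups by edgeR's quasi-likelihood test (adjusted p under 0.05 over 13679 genes), whereas 8.42% of all genes tested were called (3.85% higher, 4.58% lower) and 8.35% of the 9291 genes within the members' range of level. The values nevertheless lay mostly on one side. The log2 fold change, knockout over control, was negative for 30 of the 35 genes, against 50.4% of all genes. The median was −0.10 for the list and −0.0016 over all genes. The list was chosen with earlier results known. Its genes also moved together by library (below), so the signs are not separate observations. At an unadjusted p under 0.05, 5 members passed (14.3%) against 24.9% of all genes tested. DESeq2 and limma-voom also called 0 members, against 12.2% and 8.06% of all genes, and each gave 6 with an unadjusted p under 0.05. An edgeR fit with the replicate number as a block called 4 members (Myc, Nop56, Dkc1 and Odc1). It called 1169 genes higher and 1003 lower over the whole table, and the labels do not say what the number stands for. The lean rested on a pair of libraries: without knockout replicate 1 the median was −0.03 with 21 of 35 values negative, and without control replicate 2 it was again −0.03 with 21 negative. By group alone the 95% confidence intervals were narrow: all 35 lay within a 1.5-fold change in either direction, and 24 lay within a 1.3-fold change. With the sex term some intervals passed 1.5-fold, among them those of Myc (down to −0.80 on the log2 scale), Odc1 (−0.73) and Tfb2m (up to 0.66). Every member had at least 185 reads in each library. Per kb of exon, mean levels were highest for Npm1 (336 CPM per kb), Ncl (148) and Myc (131) and lowest for Tfb2m (4.89). That length merged every annotated exon of a gene and was 10.19 kb for Ncl and 2.717 kb for Myc. The order therefore depends on the annotation. With the sex term the median was −0.21, 33 of 35 values were negative (48.6% of all genes) and again 0 members were called (0.314% of all genes were, and 6 members and 11.9% of all genes had an unadjusted p under 0.05).

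**Figure D1:**
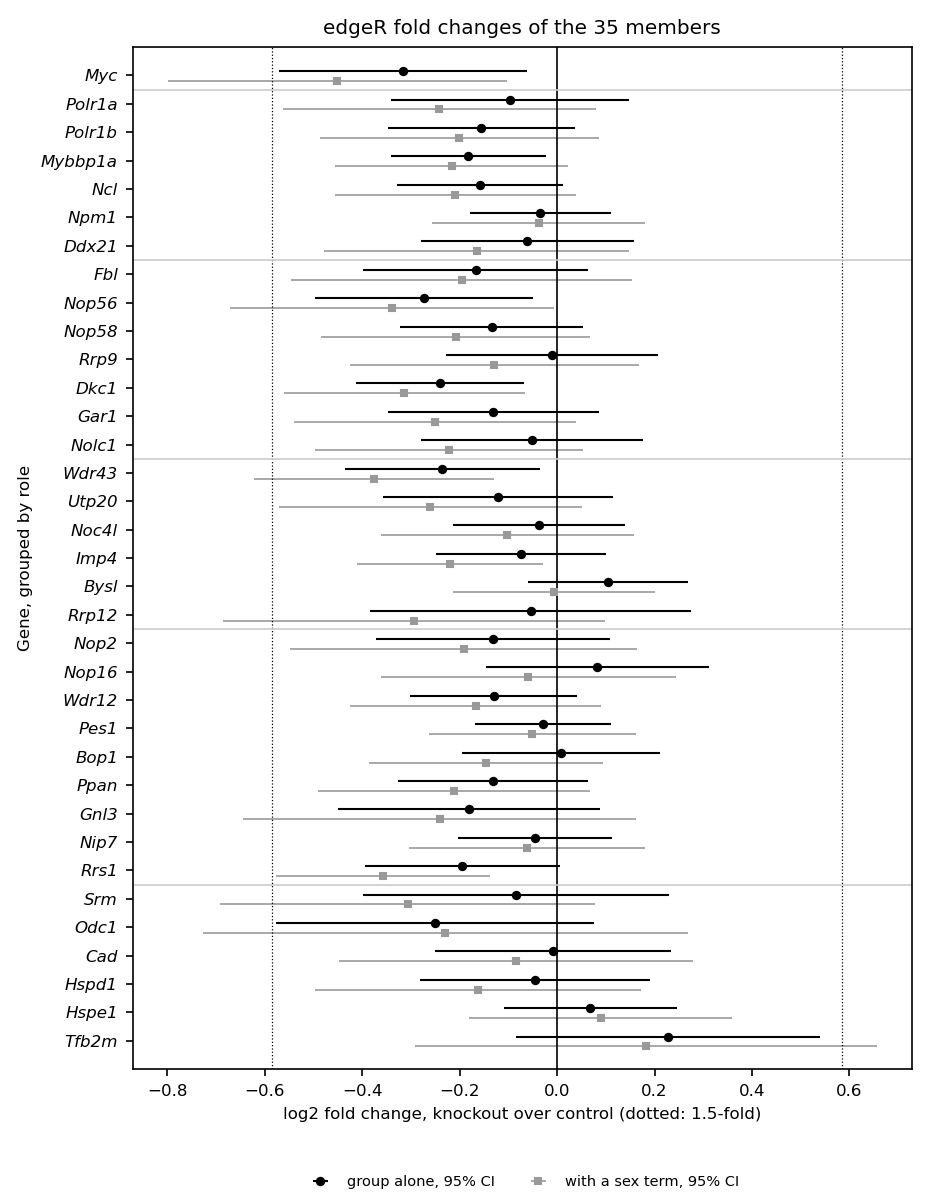
Log2 fold change of each of the 35 genes, knockout over control, with 95% confidence intervals from edgeR by group alone (black) and with a sex term (grey); genes are grouped by role and dotted lines mark a 1.5-fold change. All black intervals lie inside the dotted lines and 30 of 35 black points lie left of 0. Some grey intervals, among them those of Myc, Odc1 and Tfb2m, cross the dotted lines.

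Myc (ENSMUSG00000022346, chromosome 15, 61985391 to 61990374, plus strand, mm10) had the lowest fold change of the list. It stood at 300.9, 346.8 and 300.8 CPM in the knockout libraries and at 328.9, 432.3 and 419.9 CPM in controls. Knockout replicate 2 lay above control replicate 1, so the groups overlapped. The mean was 316.1 ± 26.5 against 393.7 ± 56.4 CPM (SD, n = 3 each), a log2 fold change of −0.32 (SE 0.11, 95% interval −0.57 to −0.06) that did not pass the test (edgeR adjusted p = 0.12). Without control replicate 1, the lowest control, Myc passed at a log2 fold change of −0.43 (edgeR adjusted p = 0.0472), and over the 6 fits that each leave out a library the value ran from −0.43 to −0.23. With the sex term it was −0.45 (edgeR adjusted p = 0.301).

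**Figure D2:**
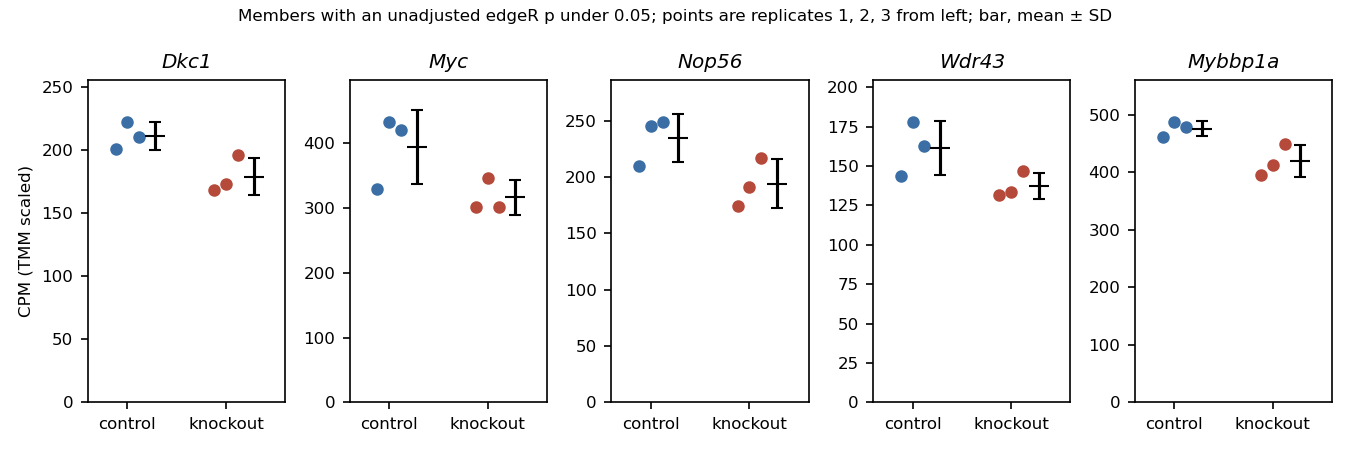
TMM-scaled CPM in each library (points, replicates 1 to 3 from left) with mean ± SD (bars, n = 3) for the 5 genes with an unadjusted edgeR p under 0.05; the axes start at 0. Control means exceed knockout means in all 5, and the 3 knockout libraries lie below all controls for Dkc1 and Mybbp1a but not for Myc, Nop56 and Wdr43.

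Promoter sequence was examined because CACGTG is the site that Myc and Max bind. RefSeq promoter windows (GRCm38.p6, 250 bases before to 50 after each annotated start) were at hand for 28 members. CACGTG, which reads the same on both strands, was present in 7 of the 28 (25%), against 8.1% of 27025 genes with a window and 11.6% of the 10173 of these with at least 10 counts in at least 3 libraries here. Upstream of the start alone it was in 3 of the 28 (10.7%), against 6.9% of all windows and 9.7% of those with such counts, so the upstream share was close to the background. In Mybbp1a, Pes1, Utp20 and Wdr43 it lay 3 to 41 bases downstream of the start. In Nop2, Imp4 and Hspd1 it lay upstream, 60, 121 and 80 bases before the start, and these sites are shown as 30-base stretches on the gene's strand with the motif in capitals.
Nop2: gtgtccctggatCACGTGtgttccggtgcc
Imp4: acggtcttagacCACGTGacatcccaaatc
Hspd1: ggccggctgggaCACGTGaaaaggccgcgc
The stretches are chr6:125131811-125131840 (plus strand), chr1:34439696-34439725 (plus strand) and chr1:55088306-55088335 (minus strand). The first overlaps no annotated gene, the second lies in the antisense gene Gm28306, and the third lies in the 5′ untranslated region of Hspe1, which is read from the opposite strand. None of these genes passed the test between the groups, with log2 fold changes of −0.13, −0.07 and −0.04. A match to the letters is a description of sequence, and binding was not measured.

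Nucleolar and RNA polymerase I genes all had negative values, from −0.18 to −0.03, and 0 of 6 were called. Mybbp1a (ENSMUSG00000040463, chromosome 11, 72441355 to 72451768, plus strand), which encodes a nucleolar Myb-binding protein that acts in rRNA transcription and processing, stood at 395.2, 413.4 and 450 CPM against 461.5, 487.4 and 478.7 CPM. All 3 knockout libraries lay below all 3 controls, but the difference did not pass (log2 fold change −0.18, SE 0.07, edgeR adjusted p = 0.144). Ncl (ENSMUSG00000026234, chromosome 1, 86344719 to 86359400, minus strand) encodes nucleolin, an abundant RNA-binding protein of the nucleolus. Its levels were 1343, 1470 and 1459 CPM against 1522, 1646 and 1599 CPM, again without overlap and with a log2 fold change of −0.16 (SE 0.07, edgeR adjusted p = 0.234). Npm1, the nucleolar chaperone nucleophosmin that is often mutated in myeloid leukaemia, stood at 884.5 ± 14.8 against 905.6 ± 21.1 CPM (n = 3 each), and its 95% interval of −0.18 to 0.11 was among the narrowest. The catalytic subunit genes of RNA polymerase I, Polr1a and Polr1b, had log2 fold changes of −0.10 and −0.16, and the helicase gene Ddx21 had −0.06.

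Among the snoRNP genes 7 of 7 values were negative, with a median of −0.13, and 0 were called. Dkc1 (ENSMUSG00000031403, chromosome X, 75095854 to 75109777, plus strand) encodes dyskerin, the pseudouridine synthase of box H/ACA snoRNPs that also belongs to telomerase. It stood at 168.6, 173 and 196 CPM against 200.8, 222.5 and 211 CPM, so every knockout library lay below every control. At a log2 fold change of −0.24 (SE 0.08, 95% interval −0.41 to −0.07) it had the smallest adjusted p of all 35 genes, 0.0891 by edgeR. Nop56 (ENSMUSG00000027405, chromosome 2, 130274430 to 130279313, plus strand), a core protein of box C/D snoRNPs, had 174.1, 191.2 and 217 CPM against 209.6, 245.4 and 248.7 CPM, with knockout replicate 3 above control replicate 1. Its log2 fold change was −0.27 (SE 0.10, edgeR adjusted p = 0.124). The other box C/D proteins Nop58 and fibrillarin (Fbl), the rRNA 2′-O-methyltransferase, had −0.13 and −0.17, while the U3 snoRNP gene Rrp9 had −0.011. Gar1, a partner of dyskerin, had −0.13 and Nolc1, a snoRNP chaperone, −0.05.

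In the small subunit group, 5 of 6 values were negative, the median was −0.06 and 0 were called. Wdr43 (ENSMUSG00000041057, chromosome 17, 71615895 to 71659031, plus strand), a component of the complex that begins processing of the pre-18S rRNA, had 131.3, 133.7 and 146.6 CPM against 143.6, 177.9 and 162.4 CPM. Control replicate 1 fell inside the knockout range, and the log2 fold change was −0.24 (SE 0.09), which missed the threshold at an edgeR adjusted p of 0.136. Bysl (ENSMUSG00000023988, chromosome 17, 47599331 to 47611492, minus strand), needed for late maturation of the small subunit, pointed the other way at 91.59, 95.46 and 100.2 CPM against 86.98, 96.08 and 83.76 CPM. Its log2 fold change of 0.10 (SE 0.07, edgeR adjusted p = 0.418) was −0.0060 with the sex term. Utp20, Imp4, Rrp12 and Noc4l, which act in early processing or in export of the pre-40S particle, ran from −0.12 to −0.04.

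Among the large subunit genes, 7 of 9 values were negative, with a median of −0.13 and 0 called. Rrs1 (ENSMUSG00000061024, chromosome 1, 9545408 to 9547455, plus strand), which helps to bring 5S RNA into the pre-60S particle, had 87.89, 93.2 and 90.52 CPM against 102.8, 116 and 91.61 CPM. Control replicate 3 lay within the knockout range, and the log2 fold change was −0.19 (SE 0.09, edgeR adjusted p = 0.214). Wdr12 (ENSMUSG00000026019, chromosome 1, 60069785 to 60098645, minus strand) had 73.14, 75.46 and 85.87 CPM against 81.94, 87.62 and 86.65 CPM, a log2 fold change of −0.13 (SE 0.08, edgeR adjusted p = 0.328). Its partners in the PeBoW complex of pre-60S assembly had values near 0, with −0.03 for Pes1 and 0.0076 for Bop1. Gnl3, which encodes the stem cell-associated GTPase nucleostemin, had 134.7 ± 16.4 against 152.6 ± 20.5 CPM (log2 fold change −0.18), with SDs similar in size to the difference. Nop2, an rRNA cytosine methyltransferase, and Ppan had −0.13 each, Nip7 −0.05 and Nop16 0.08.

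Of the Myc targets outside the ribosome pathway, 4 of 6 values were negative, the median was −0.03 and 0 were called. Odc1 (ENSMUSG00000011179, chromosome 12, 17544794 to 17551505, plus strand), ornithine decarboxylase, makes the first polyamine and is a classical Myc target. It had 117, 121 and 165.4 CPM against 140.2, 157.3 and 181.8 CPM, with knockout replicate 3 above 2 of the controls. The log2 fold change was −0.25 with an SE of 0.14, among the largest of the list (edgeR adjusted p = 0.321). Tfb2m (ENSMUSG00000026492, chromosome 1, 179528055 to 179546267, minus strand), a mitochondrial transcription factor, had the highest value, 0.23 (SE 0.14, edgeR adjusted p = 0.349), and with 185 reads in its thinnest library it was the member with the fewest. Its levels were 15.96, 12.78 and 15.65 CPM against 11.37, 13.01 and 13.43 CPM, and knockout replicate 2 lay below 2 of the controls. Srm, the spermidine synthase gene, had −0.09, the pyrimidine synthesis gene Cad −0.0084, and the mitochondrial chaperonin genes Hspd1 and Hspe1, which are transcribed away from a shared promoter region, −0.04 and 0.07.

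Libraries of 1 label differed as much as the labels did. The mean log2 CPM over the 35 genes was 6.97, 7.09 and 7.18 in knockout replicates 1 to 3 and 7.07, 7.27 and 7.19 in the controls, so the groups overlapped. Group means were 7.08 ± 0.11 against 7.17 ± 0.10 (SD, n = 3 each), a difference of −0.09 that was smaller than the SD of either group, while the mean over all genes tested differed by 0.0017. Knockout replicate 1 was the lowest of the 6 libraries for 26 of the 35 genes, against 18.7% of all genes, and control replicate 2 was the highest for 18, against 12.2%. The female control replicate 2 lay above all 3 knockout libraries for 24 of the 35 genes (30.3% of all genes). Dkc1, Mybbp1a and Ncl were the 3 genes whose groups did not overlap, each lower in the knockout libraries, where 16.1% of all genes had that pattern.

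**Figure D3:**
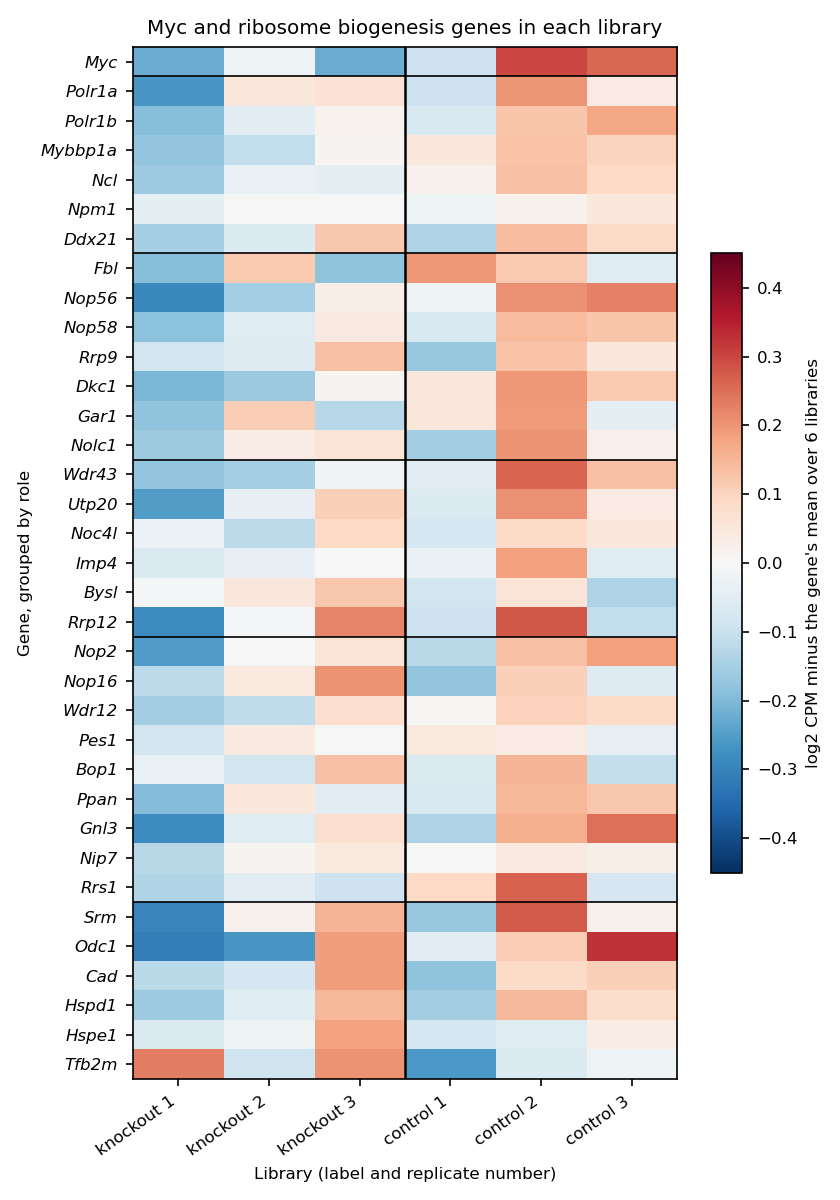
Log2 CPM of each gene minus its mean over the 6 libraries, with knockout libraries left and controls right of the vertical line and horizontal lines between role groups. Blue is below and red above the gene's mean; the knockout replicate 1 column is low for most genes (lowest for 26 of 35) and the control replicate 2 column is high for most (highest for 18).

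Further genes of the same pathway had small values, mostly of the same sign. Of 108 other genes for RNA polymerase I, snoRNP assembly and assembly of either subunit, 0 were called by edgeR, against 8.42% of all genes. At an unadjusted p under 0.05, 10 passed (9.26%), against 24.9% of all genes. These lists, too, were chosen with earlier results known. Log2 fold changes were negative for 88 (81.5%, against 50.4% of all genes), with a median of −0.07 (−0.12 with the sex term). Without knockout replicate 1 or control replicate 2 that median was −0.05 and −0.03. In large subunit assembly 38 of 42 values were negative (median −0.08), and in small subunit assembly 29 of 39 (median −0.07). Groups did not overlap, with the knockout libraries lower, for 12 of the 42, 4 of the 39 and 19 of all 108. Over all genes tested, 16.1% had that pattern. The RNA polymerase I genes had 11 of 14 negative with a median of −0.04, which was −0.015 with the sex term. The helicase gene Ddx10 had the smallest p of these, at 62.9 ± 4.89 against 79.15 ± 7.67 CPM (n = 3 each; log2 fold change −0.33, edgeR adjusted p = 0.0563), and Nmd3, the export adaptor of the large subunit, had −0.28 (edgeR adjusted p = 0.117). RNA polymerase III genes (16 of 20 negative, median −0.07), translation initiation factors (13 of 16, −0.05) and mitochondrial chaperone and gene expression genes (14 of 16, −0.07) had 0 called each by edgeR and 1 each at an unadjusted p under 0.05. Among cytosolic ribosomal protein genes 69 of 82 values were negative, with a median of −0.05 (−0.0094 with the sex term). The sign rested on knockout replicate 3, whose mean over the list was 8.57 log2 CPM against 8.78 and 8.86 in the other knockout libraries and 8.84, 8.76 and 8.80 in controls. Without that library the median was 0.02 and 33 of 82 values were negative, without knockout replicate 2 it was −0.11, and without control replicate 1 −0.02. The gene called there was Rpl22l1, a paralogue of Rpl22 that the symbol pattern also takes, which fell from 115.8 ± 7.12 to 94.79 ± 4.42 CPM (log2 fold change −0.29, edgeR adjusted p = 0.0407, n = 3 each). That call held without control replicate 2 and was lost on leaving out any other library. A sex term also removed it (−0.18, edgeR adjusted p = 0.465).

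**Figure D4:**
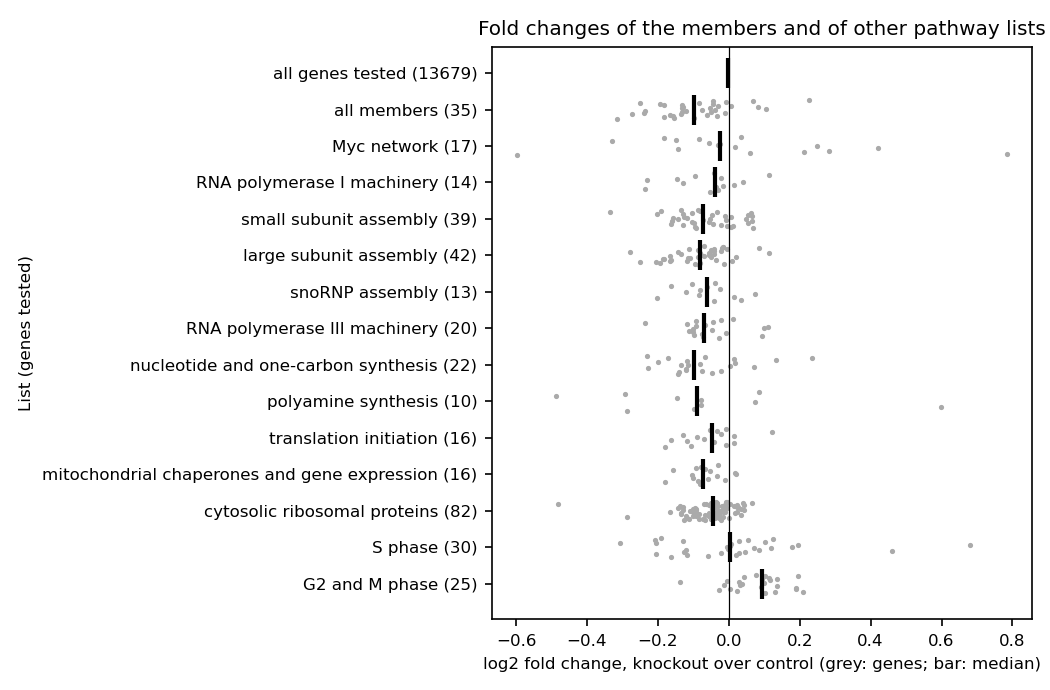
Log2 fold change of single genes (grey points) and list medians (black bars) for the 35 members and 13 other lists, with the number of genes tested in parentheses; for all genes tested the median alone is drawn. The medians of the ribosome biogenesis lists lie between −0.10 and −0.04, left of the all-gene median near 0.

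Partners and antagonists of Myc did not move as a block. Of 17 Myc network genes tested, 1 was higher, 0 lower, and the median was −0.02. The shares over all genes tested were 3.85% higher and 4.58% lower. At an unadjusted edgeR p under 0.05, 7 passed (41.2%), against 24.9% of all genes. Mxi1, which encodes a Max partner that opposes Myc, had 116.6, 95.22 and 93.01 CPM against 80.16, 79.13 and 68.19 CPM. All knockout libraries thus lay above all controls, a pattern that 15.1% of all genes tested had. Mxi1 rose by 0.42 on the log2 scale (SE 0.10, edgeR adjusted p = 0.042). That call was lost on leaving out any of the 6 libraries (0.31 to 0.48, edgeR adjusted p up to 0.105) and with the sex term (0.36, adjusted p = 0.416). The other Max partners of that family missed the threshold, with 0.21 for Mxd1, 0.28 for Mxd3, −0.14 for Mxd4 and 0.02 for Mnt (edgeR adjusted p = 0.182, 0.231, 0.457 and 0.889), and Max itself had 0.06. Mycn, the paralogue expressed in stem cells, had 26.53, 27.59 and 29.45 CPM against 31.78, 40.33 and 54.48 CPM, without overlap, but its log2 fold change of −0.60 (SE 0.17) missed the threshold (edgeR adjusted p = 0.0716). Mycl was at 0.79 with a wide spread among the knockout libraries (14.53 ± 6.45 against 8.487 ± 1.7 CPM, edgeR adjusted p = 0.158).

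The polyamine and nucleotide lists held 3 calls, where 8.42% of all genes tested were called. At an unadjusted edgeR p under 0.05, 4 polyamine genes (40%) and 3 nucleotide genes (13.6%) passed, against 24.9% of all genes. Of 10 polyamine genes 1 was higher and 1 lower. Sat1 acetylates polyamines for export and breakdown. It rose from 98.54, 106.4 and 88.23 CPM in controls to 141.6, 141.8 and 161.3 CPM in the knockout libraries. The groups did not overlap, and 15.1% of all genes tested had that pattern with the knockout libraries higher. The log2 fold change of Sat1 was 0.60 with an SE of 0.09 (edgeR adjusted p = 0.00752). Mtap, which salvages the methylthioadenosine left by polyamine synthesis, fell from 54.4, 63.82 and 62.2 CPM to 40.96, 41.02 and 47.03 CPM, by −0.49 ± 0.09 (SE) on the log2 scale (edgeR adjusted p = 0.0171). Sat1 kept its call whichever library was left out, and Mtap lost it without knockout replicate 1 or 2. With the sex term neither was called (0.48 and −0.57, edgeR adjusted p = 0.165 and 0.131). Amd1 and Mri1, of polyamine synthesis and methionine salvage, had −0.29 each and missed the threshold, at edgeR adjusted p-values of 0.0969 and 0.073. Of 22 nucleotide and folate pathway genes, 16 were negative and 1 was called, the ribose phosphate synthetase gene Prps2 (95.42 ± 2.47 against 111.9 ± 1.95 CPM, log2 fold change −0.23, edgeR adjusted p = 0.0417). That call was lost on leaving out any of the 6 libraries, with the sex term and with no filter on low counts.

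Cell cycle genes had medians at or above 0. S phase genes had a median log2 fold change of 0.0047 over 30 genes, with 2 higher and 1 lower. Over all genes tested 3.85% were higher and 4.58% lower. Ccne1, which encodes cyclin E1, rose from 19.11 ± 2.23 to 30.71 ± 3.53 CPM (log2 fold change 0.68, edgeR adjusted p = 0.0165, n = 3 each). Rrm2, a ribonucleotide reductase subunit, rose from 186.9 ± 24.6 to 257.6 ± 17.5 CPM (0.46, edgeR adjusted p = 0.0307), and the uracil-DNA glycosylase gene Ung fell from 51.6 ± 2.92 to 41.68 ± 2.48 CPM (−0.31, edgeR adjusted p = 0.0472). The call of Ccne1 was lost without knockout replicate 2 or control replicate 1, that of Rrm2 on leaving out any of the knockout replicates or control replicate 1, and that of Ung on leaving out any of the 6 libraries, with DESeq2 size factors and with limma-voom. None of the 3 was called with the sex term. Of 25 G2 and M phase genes 0 were called by edgeR and 1 had an unadjusted p under 0.05 (4%, against 24.9% of all genes). The log2 fold change was positive for 21, with a median of 0.09. That median was 0.04 with the sex term (7 of 25 negative), 0.0086 without knockout replicate 1 and 0.04 without control replicate 3 (11 negative in each).

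**Figure D5:**
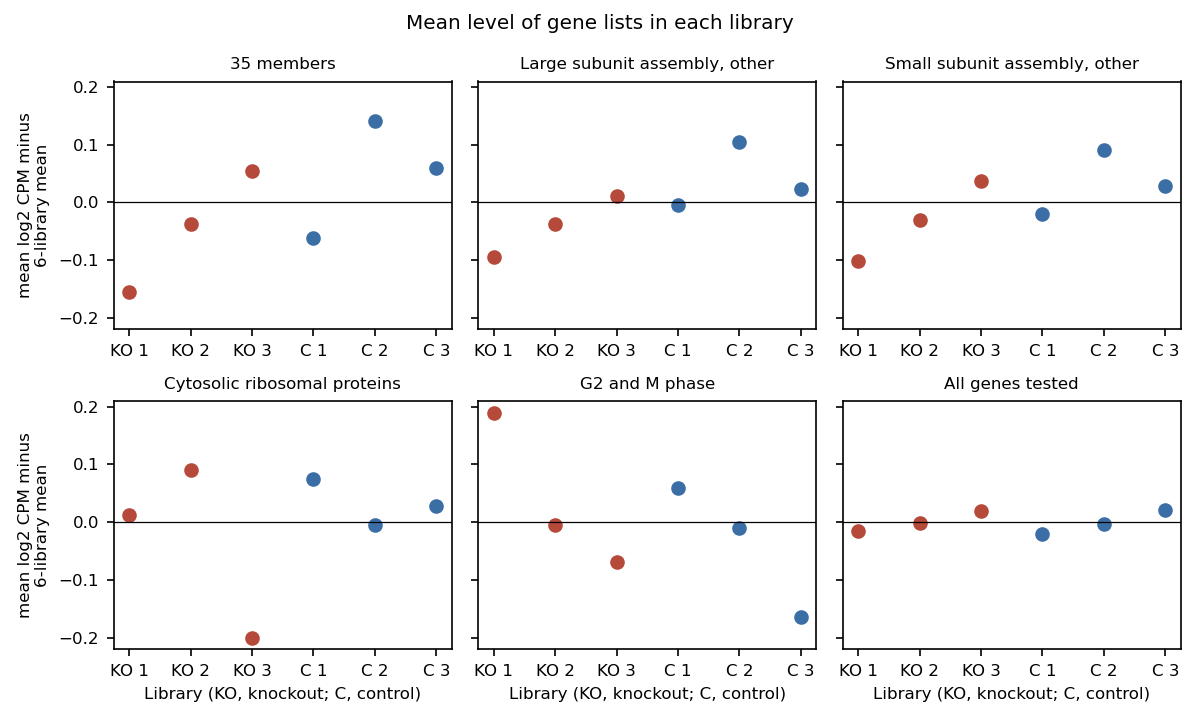
Mean log2 CPM of 6 gene lists in each library minus the mean over the 6 libraries, with knockout (KO) libraries in red and control (C) libraries in blue. The members and both lists of other assembly genes are lowest in knockout replicate 1 and highest in control replicate 2, whereas G2 and M phase genes are highest in knockout replicate 1.

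Some counts carry a limit from the annotation. In GENCODE M21, 10 members overlap a protein-coding gene of the table on the opposite strand, among them Dkc1 with Mpp1, Mybbp1a with Spns2, Nop56 with Idh3b, Bysl with Ccnd3, and Gnl3 with Pbrm1, which encodes another PBAF subunit. The library kit marks strand, but the labels do not say whether counting used strand, so reads from such partners may be shared. A snoRNA gene lies inside 8 members, among them Ncl, Nop56, Nop58 and Gnl3.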

How the data were processed

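RNA of LSK cells was poly(A)-selected and made into strand-specific libraries, per the labels' protocols. The values are raw read counts per gene symbol as the authors deposited them; STAR and mm10 are named in the submitters' processing notes, while the version, counter and annotation are not stated there. Counts were tested with edgeR 4.0.16 (R 4.3.3): filterByExpr (minimum count 10, minimum total 15) kept 13679 symbols, libraries were scaled by TMM, and the quasi-likelihood F test had the group as sole term, with Benjamini-Hochberg adjustment over all symbols and a threshold of 0.05. CPM and log2 CPM (prior count 2) were computed here after TMM. The 95% intervals are from that model. DESeq2 1.42.0, limma-voom (limma 3.58.1) and the other alternatives are given in the closing section. The scripts were tested on simulated counts. No library repeated another within sampling noise (chi-square per degree of freedom at least 10.18).

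The 35 members and all gene lists were chosen with earlier results of these data known. Values per library are given for Myc and, in each role group, the 2 members with the smallest unadjusted p; other pathway genes are named where called, and Mxd1, Mxd3, Mxd4, Mnt, Max, Mycn, Mycl, Ddx10, Nmd3, Amd1 and Mri1 were chosen after their values were seen. Lists are described by counts and medians. Gene positions are from GENCODE M21 (GRCm38, the mm10 assembly), and promoter windows are from RefSeq.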

Additional observations from a re-analysis of the deposited data

How the results depend on the processing

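No member was called by group alone, with DESeq2 size factors, upper-quartile scaling, library totals, no filter on low counts, a filter of 1 CPM in 3 libraries, DESeq2, limma-voom, a sex term or the female libraries alone. Leaving out each library in turn gave 0 to 1 members called (Myc, without control replicate 1), a median of the members from −0.14 to −0.03 and a difference of mean log2 CPM from −0.15 to −0.04. Of 560 member values under the alternatives, 520 kept direction and side of the threshold, 35 changed sign and 5 passed the threshold. The genes called over the whole table numbered 526 higher and 626 lower, against 833 higher with DESeq2, 7 and 36 with the sex term, 10 and 29 in the female libraries alone, and 119 to 440 and 171 to 544 without a library. The median of the members was −0.21 both with the sex term and in the female libraries alone.

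With the replicate block, 1169 genes were higher, 1003 lower and 4 members were called, namely Myc (−0.31), Nop56 (−0.28), Dkc1 (−0.24) and Odc1 (−0.26). Libraries with the same number had correlated deviations for replicates 1 and 3 (0.29 and 0.34). Across numbers, knockout replicate 1 with control replicate 3 had −0.33, and knockout replicate 3 with control replicate 1 had −0.31. Deviations from a group's mean sum to 0 within the group, so these values are not independent. Knockout replicate 2 was near 0 with control replicates 1, 2 and 3 alike (0.03, −0.0048 and −0.02). The labels do not say what a shared number stands for, and this was not tested.

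Of the 35 members, 19 kept their sign under every alternative. The others had log2 fold changes by group alone from −0.097 (Polr1a, at the median of the list) to 0.10 (Bysl). Without knockout replicate 1, 9 members changed sign, and without control replicate 2 again 9. Bop1 was −0.016 with upper-quartile scaling and −0.011 with library totals. With the sex term Bysl, Nop16 and Bop1 were −0.0060, −0.059 and −0.15, and in the female libraries −0.0083, −0.061 and −0.15. Over the fits that leave out a library the values ran from −0.17 to 0.0032 for Polr1a, −0.14 to 0.0042 for Ddx21, −0.092 to 0.065 for Rrp9, −0.14 to 0.055 for Nolc1, −0.091 to 0.0125 for Noc4l, −0.12 to 0.017 for Imp4, −0.18 to 0.10 for Rrp12, −0.057 to 0.0064 for Pes1, −0.057 to 0.10 for Bop1, −0.078 to 0.0044 for Nip7, −0.19 to 0.0525 for Srm, −0.11 to 0.051 for Cad, −0.14 to 0.028 for Hspd1 and −0.0083 to 0.12 for Hspe1. The cause was not tested. The pathway genes outside the members and their median (−0.12 to −0.03 over all alternatives) were put through the same alternatives after seeing the data, as were the medians of the ribosomal protein genes, which ran from −0.11 to 0.02 without a library and changed sign without knockout replicate 3 alone (0.0198), and of the G2 and M phase genes (0.0086 to 0.14).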

Other observations

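The library order of the members differed from that of the G2 and M phase genes. Knockout replicate 1, the lowest library for the mean of the 35 members (6.97 log2 CPM), was the highest for the mean of 25 G2 and M phase genes (7.37), and control replicate 1 was the next in both orders (7.07 and 7.23). The other 4 libraries had G2 and M phase means of 7.17 and 7.11 in knockout replicates 2 and 3 and 7.16 and 7.01 in control replicates 2 and 3. Cytosolic ribosomal protein genes followed neither order: knockout replicate 3 was the lowest at 8.57 log2 CPM, against 8.76 to 8.86 in the other 5 libraries, although its mean over the 35 members was 7.18. These orders were noticed after the values were seen and were not tested.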
